A study of Mus musculus with 6 samples.

Results

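The genes described here are 45 genes for transient receptor potential (TRP) channels and for proteins that move calcium or set the force that drives it into T cells. They were taken from a list of gene names. Of the 45, 43 had a probe set that the array annotation gives to that gene alone, among 22180 such genes on the array. Pkd2 and Itpr1 were not analysed here. Where a gene had several probe sets, the brightest over all arrays stood for it. No filter on low values was applied, so all 43 genes were tested.

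The RNA came from purified splenic CD4+ T cells of female wild-type C57BL/6 mice about 8 weeks old. In the icilin group, cells were kept for 24 h with 100 µM icilin, and in the vehicle group for the same time with its solvent, dimethyl sulfoxide. Both groups had first been stimulated for 24 h with antibodies against CD3 and CD28, each at 10 µg/mL, so neither group shows resting cells. Each group held 3 Affymetrix Mouse Gene 2.0 ST arrays, the cells of both came from the same 3 mice, and a single dose and time were studied.

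Icilin is a synthetic cooling compound known as an opener of the cation channels TRPM8 and TRPA1. In T cells, calcium enters by a different main route. The antigen receptor activates phospholipase C, inositol trisphosphate (IP3) opens receptors on the endoplasmic reticulum, and the emptied store is sensed by STIM proteins, which open ORAI channels in the plasma membrane. Potassium channels keep the membrane potential negative so that calcium can flow in, and pumps return calcium to the stores or out of the cell.

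Expression is given as log2 values made by robust multi-array averaging (RMA). A difference is icilin minus vehicle on this log2 scale, with its standard error (SE) or 95% interval from limma, a linear model fitted across all 22180 genes. A gene counts as called when its Benjamini-Hochberg adjusted p is under 0.1 and its change is at least 1.5-fold, the limits the study itself used. The brightness of a probe set also depends on its probe sequences, so a level compares arrays for a gene, and only roughly places a gene as bright or dim. With 3 arrays in each group, the number of arrays limits the precision, and the median SE over all genes was 0.09. Array medians over the genes ran from 4.55 to 4.59. All 9 measured T cell markers were brighter than the median gene in all 6 arrays, against 21 of 79 markers of other cell types.

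Most of the listed calcium handling genes were bright and most of the TRP channel genes were dim. Of the 43 genes, 25 lay above the array's median gene in all 6 arrays, which was also true of 46.9% of all genes. The share was 18 of 19 among genes outside the TRP family and 7 of 24 among TRP genes. These shares depend on which genes were listed. Among genes that are not members, 7 of 19 others of the channel families were above that line in all 6 arrays. Of 12 other calcium pumps and exchangers, 1 was. As a second line, the 95th percentile of 1105 olfactory receptor genes, a family used mainly by sensory neurons of the nose, lay at 4.08 to 4.23. By that line 27 genes were bright, the added ones being Trpm5 and Ryr1. These were also the genes just below the median line: the smallest margin over the array's median was -0.08 for Ryr1 and -0.10 for Trpm5, while it was 0.17 for Mcoln2 and 0.36 for Orai2.

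**Figure D1:**
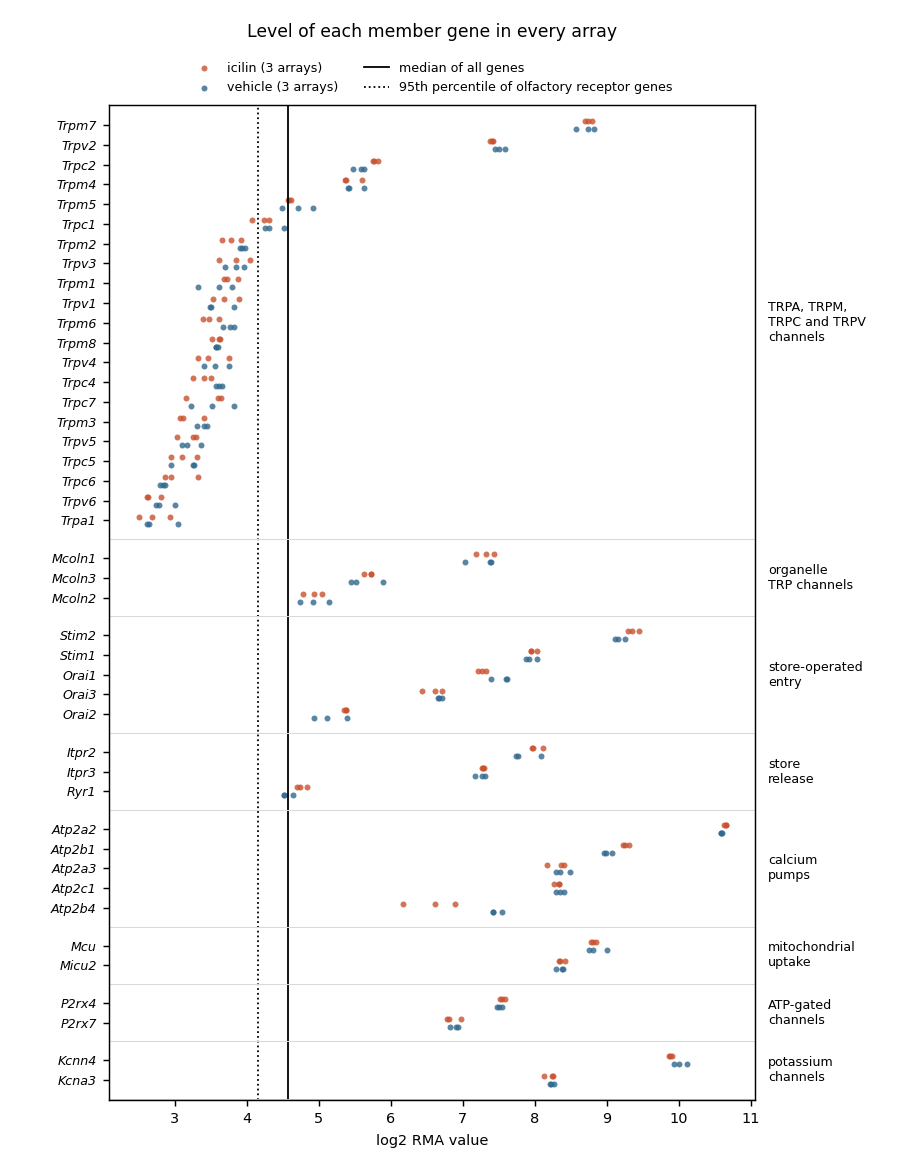
Log2 RMA value (x axis) of each of the 43 genes (rows, grouped by role and ordered by mean level) in the 3 icilin arrays (upper points of a row) and the 3 vehicle arrays (lower points). The solid line marks the median of all genes and the dotted line the 95th percentile of olfactory receptor genes; 7 of 24 TRP genes and 18 of 19 others lie right of the solid line in all 6 arrays.

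A single gene of the 43, Atp2b4, was called, and it fell with icilin. That is 2.33% of the members, and over all genes 311 of 22180 (1.40%) were called, so the share is near that of the array as a whole. Calls of lower genes made up 1.03% and calls of higher genes 0.370% of all genes. Of the other 42, limma called 0, although without adjustment 4 positive and 3 negative differences had a p under 0.05. With Atp2b4, 8 of 43 (18.6%) passed that unadjusted limit, as did 17.1% of all genes. In 12 of the 43 (27.9%) the icilin and vehicle arrays did not overlap, 6 higher and 6 lower, against 24.1% of all genes (13.6% higher and 10.5% lower). Differences of the 42 ran from -0.27 to 0.25, and the median over all 43 was -0.03, against 0.01 over all genes. Significance analysis of microarrays (SAM), the study's own method, likewise called Atp2b4 alone among the members, and 331 genes (1.49%) in all.

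Whether members passed the adjusted p alone, without the fold limit, depended on the variance model and on the genes tested. With an intensity trend and robust variances, limma's adjusted p was 0.0374 for Orai1, 0.0471 for Stim2 and 0.00649 for Atp2b1. With Atp2b4 that is 4 of 43 members, while 11.8% of all genes passed. With dim genes left out it was 0.0442 for Trpc2, 0.0460 for Orai1, 0.0825 for Stim2, 0.0660 for Ryr1 and 0.0224 for Atp2b1. With Atp2b4 that is 6 of 27 members (22.2%), and 23.1% of all genes tested passed. None of these 5 genes reached 1.5-fold, and in the main setting Atp2b4 alone passed the adjusted p.

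An adjusted p above the limit does not show that a gene stayed the same, so the intervals are given as well. For each of the 42 uncalled members the 95% interval of the difference, which is not corrected for the number of genes, lay inside 1.5-fold in both directions. Intervals this narrow were common: 19775 of 22180 genes (89.2%) had them. For dim probe sets RMA compresses differences toward 0, which limits what a narrow interval says about the 18 members that were not above the median in all 6 arrays.

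**Figure D2:**
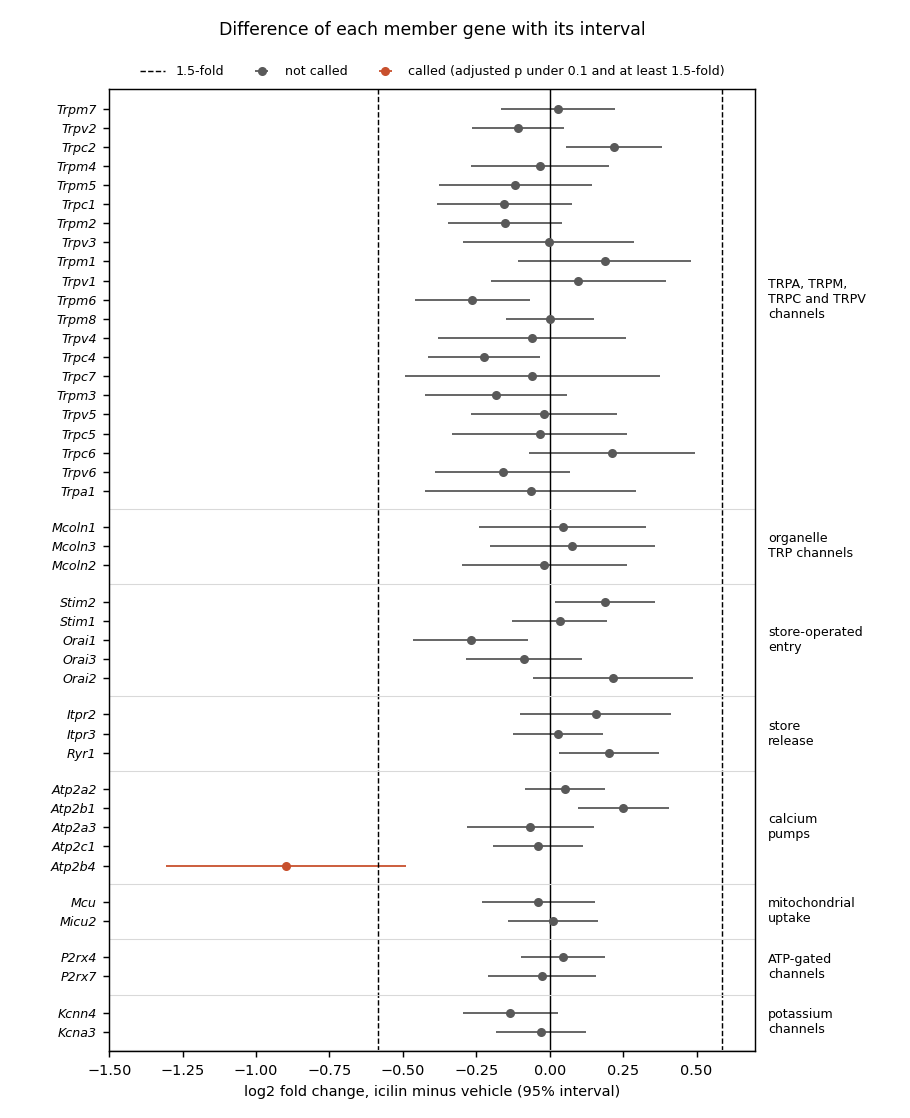
Difference in log2 RMA value, icilin minus vehicle (x axis), of the 43 genes (rows, grouped by role) with its 95% interval from limma (bars), n = 3 arrays a group. Dashed lines mark 1.5-fold; the interval of Atp2b4 reaches from -1.31 to -0.49, and the 42 other intervals lie between the dashed lines.

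The channels through which icilin is known to act were dim in both groups. Trpm8, the cold and menthol receptor, had 3.63, 3.61 and 3.51 in icilin arrays, against 3.58, 3.60 and 3.58 in vehicle arrays. The icilin and vehicle values overlapped, and all 6 lay below the median gene. The difference was 0.00 (95% interval -0.15 to 0.15). Trpa1, the receptor for mustard oil and other irritants, had 2.69, 2.93 and 2.50 in icilin arrays, against 2.64, 2.62 and 3.05 in vehicle arrays. The groups overlapped, and the interval of the difference was wider, at -0.42 to 0.29. Brightness at this level was also seen for some olfactory receptor genes: 10.4% of them had a higher mean than Trpm8 and 25.8% a higher mean than Trpa1. The median level of the olfactory receptor genes was lower, at 2.08.

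Among the other TRPM genes, Trpm7 and Trpm4 were bright. Trpm7, a magnesium- and calcium-conducting channel fused to a kinase, had 8.69, 8.80 and 8.74 in icilin arrays and 8.74, 8.57 and 8.82 in vehicle arrays, the highest mean level of the 24 TRP genes. Its difference was 0.03 (95% interval -0.16 to 0.22), and the groups overlapped. Trpm4, a sodium-conducting channel opened by calcium, averaged 5.45 ± 0.13 with icilin and 5.48 ± 0.13 with vehicle (SD, n = 3 each). Trpm5, its relative in taste cells, stood near the median line at 4.59 ± 0.02 with icilin and 4.71 ± 0.22 with vehicle. Trpm6, the magnesium channel of kidney and gut, was dim, with 3.62, 3.47 and 3.39 in icilin arrays and 3.83, 3.67 and 3.77 in vehicle arrays. Its groups did not overlap, but the difference of -0.26 did not pass (limma adjusted p = 0.170). Trpm1, Trpm2 and Trpm3, known from the retina, from oxidative stress signalling and from heat sensing, were also dim, with differences of 0.19, -0.15 and -0.18.

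Of the 6 measured TRPC genes, which code for channels opened downstream of phospholipase C, Trpc2 was the bright member. Trpc2, a pheromone-signalling channel of the mouse vomeronasal organ, had 5.82, 5.76 and 5.76 in icilin arrays, against 5.59, 5.47 and 5.63 in vehicle arrays. Every icilin value was above every vehicle value, and the difference was 0.22 ± 0.07 (SE; limma adjusted p = 0.170). In RefSeq (assembly GRCm38.p6) Trpc2 overlaps the protein-coding genes Xntrpc and Xndc1, so the signal of this probe set may not belong to Trpc2 alone. Trpc4 did not overlap between groups either, with 3.50, 3.40 and 3.26 in icilin arrays and 3.57, 3.66 and 3.61 in vehicle arrays (difference -0.22, limma adjusted p = 0.222). Trpc6 was the remaining member without overlap, higher by 0.21 with an interval of -0.07 to 0.50. Trpc1, Trpc5 and Trpc7 overlapped, with differences of -0.16, -0.03 and -0.06, and all 5 members other than Trpc2 lay below the median line.

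Trpv2 was the bright member of the TRPV genes. It codes for a cation channel found in many immune cells, and had 7.42, 7.41 and 7.37 in icilin arrays, against 7.44, 7.50 and 7.59 in vehicle arrays. The groups did not overlap, although they were close: the difference was -0.11 (95% interval -0.26 to 0.05). A second, dimmer probe set of Trpv2 averaged 4.22 with icilin and 3.95 with vehicle, a difference of 0.27, so the probe sets disagree in sign. The capsaicin receptor gene Trpv1 had a difference of 0.10, the skin heat channel gene Trpv3 one of 0.00 and the osmosensitive channel gene Trpv4 one of -0.06. For the epithelial calcium channel genes Trpv5 and Trpv6 the differences were -0.02 and -0.16. These 5 genes were below the median line in every array, and their icilin and vehicle values overlapped.

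The TRP channels of endosomes and lysosomes were above the median line. Mcoln1, which releases calcium from lysosomes, had 7.44, 7.18 and 7.31 in icilin arrays and 7.03, 7.39 and 7.37 in vehicle arrays. Mcoln3 averaged 5.69 ± 0.06 with icilin and 5.62 ± 0.23 with vehicle, and Mcoln2 averaged 4.91 ± 0.13 with icilin and 4.93 ± 0.20 with vehicle. The differences of the 3 genes ran from -0.02 to 0.08, and their groups overlapped. Mcoln3 overlaps the protein-coding gene Wdr63 in RefSeq.

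All 5 genes of store-operated calcium entry were bright, and their differences pointed both ways. Orai1, the pore of the main T cell calcium channel, had 7.32, 7.20 and 7.26 in icilin arrays, against 7.39, 7.61 and 7.59 in vehicle arrays. Every icilin value was below every vehicle value, the difference was -0.27 ± 0.08 (SE), and it did not pass in the main setting (limma adjusted p = 0.161). Stim2, the store sensor that responds to small losses of calcium, had 9.44, 9.35 and 9.29 in icilin arrays, against 9.11, 9.25 and 9.16 in vehicle arrays. Here every icilin value was the higher, by 0.19 ± 0.07 on average (limma adjusted p = 0.247). Stim1, the main store sensor, averaged 7.97 ± 0.04 with icilin and 7.94 ± 0.08 with vehicle. Orai2, a pore subunit that tempers ORAI1 currents in mouse T cells, had 5.37, 5.37 and 5.35 in icilin arrays and 5.40, 5.11 and 4.94 in vehicle arrays. Its vehicle values were spread more widely, and the highest of them lay above all icilin values. Orai3 averaged 6.59 ± 0.14 with icilin and 6.67 ± 0.03 with vehicle.

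Genes of calcium release from the stores were not called. Itpr2, an IP3 receptor gene, had 7.96, 8.12 and 7.98 in icilin arrays and 7.76, 7.74 and 8.09 in vehicle arrays, with a difference of 0.16 (95% interval -0.10 to 0.41). The groups overlapped through vehicle replicate 3. Itpr3, also an IP3 receptor gene, averaged 7.28 ± 0.02 with icilin and 7.25 ± 0.07 with vehicle. A second probe set of Itpr3 differed by -0.08. Ryr1, the release channel of skeletal muscle, stood near the median line with 4.70, 4.83 and 4.74 in icilin arrays and 4.51, 4.51 and 4.64 in vehicle arrays. These did not overlap, and the difference was 0.20 ± 0.07 (limma adjusted p = 0.217), with 0.11 for a second probe set.

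The calcium pumps held the called gene. Atp2b4 codes for a pump that exports calcium through the plasma membrane. It had 6.16, 6.61 and 6.90 in icilin arrays, against 7.42, 7.54 and 7.42 in vehicle arrays. The vehicle values were close together, whereas the icilin values were widely spread and all lay below them. The mean was 6.56 ± 0.37 with icilin and 7.46 ± 0.07 with vehicle (SD, n = 3 each), and the icilin SD was the largest of any member in either group. Atp2b4 fell by 0.90 on the log2 scale, with an SE of 0.17 and a 95% interval of -1.31 to -0.49, that is to 0.536 of the vehicle level (limma adjusted p = 0.0424).

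The call of Atp2b4 did not hold in every setting. Without icilin replicate 1, the lowest array, the difference was -0.70 (limma adjusted p = 0.0488), and without icilin replicate 3 it was -1.07 (adjusted p = 0.0258). The call ended without icilin replicate 2 (-0.93, adjusted p = 0.117), without vehicle replicate 1 (-0.92, adjusted p = 0.113), without vehicle replicate 2 (-0.86, adjusted p = 0.145) and without vehicle replicate 3 (-0.92, adjusted p = 0.126). It also ended when all 41345 probe sets were tested together, at an adjusted p of 0.126. In no setting was the difference closer to 0 than -0.70.

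Markers of other cell types were examined beside this gene, since in bulk RNA fewer cells of a type and less RNA per cell cannot be told apart. The pump is known from the membrane of human red cells. The 7 measured red cell and platelet markers, of which 4 were above the median line and 0 were called by limma (before adjustment, p was under 0.05 for 1 higher gene and 2 lower genes), had a mean log2 level of 4.38 to 4.48 in icilin arrays and 4.49 to 4.57 in vehicle arrays. The 11 natural killer and CD8 T cell markers, 2 of them above the line, also had a lower mean with icilin without overlap, at 4.09 to 4.15 in icilin arrays and 4.20 to 4.30 in vehicle arrays. Within that list 4 differences were above 0 and 7 below, and Eomes was called higher (0.67). Crtam was called lower (-0.92), the largest change of the list, and the gap between the list means rests largely on it. The CD8 chain genes Cd8a and Cd8b1 differed by 0.01 and 0.39 and were not called. The 12 dendritic cell markers, 7 of them above the line, stood at 6.48 in icilin arrays and 6.55 to 6.60 in vehicle arrays. H2-Ab1, a class II antigen presentation gene, was called lower (-1.22), while the class II genes H2-Aa and H2-Eb1 differed by -0.04 and -0.01. The change of H2-Ab1 was by far the largest of the list, and the lower list mean rests on it. Batf3 was higher (0.47, limma adjusted p = 0.024), short of 1.5-fold. In this list 3 of the 12 differences were above 0 and 9 below, with a median of -0.07.

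The 13 B cell markers, 2 of them above the line, had a higher mean with icilin without overlap. It was 4.35 to 4.42 in icilin arrays and 4.22 to 4.33 in vehicle arrays. Ms4a1, which codes for the B cell antigen CD20, was called higher (1.01). This was the largest change of the list, and the gap between the list means rests on it. Spib was higher without overlap but not called (0.58, limma adjusted p = 0.131). Ebf1 went the opposite way without overlap and was not called (-0.73, limma adjusted p = 0.128). In this list 9 of the 13 differences were above 0 and 4 below. The 22 myeloid markers overlapped, at 3.92 to 3.98 with icilin and 3.86 to 3.94 with vehicle, and Mpeg1, the macrophage pore-forming protein gene, was called higher (0.75). The 15 stromal markers overlapped too, with 0 called by limma and 1 lower gene with a p under 0.05 before adjustment. The 5 called markers, and Batf3, H2-Aa, H2-Eb1, Cd8a, Cd8b1, Spib and Ebf1, were named after their values were seen. Over all 79 markers the mean was 4.50 to 4.53 with icilin and 4.50 to 4.54 with vehicle. This is an average over lists whose means differed in opposite directions, some of them largely through a single gene. The 9 T cell markers averaged 10.1 to 10.2 in both groups, with 0 called, but Zap70, the receptor-proximal kinase gene, was lower (-0.33, limma adjusted p = 0.0403) and the costimulatory receptor gene Cd28 higher (0.34, limma adjusted p = 0.0529), both short of 1.5-fold. The part of these markers in the Atp2b4 result was not tested.

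**Figure D3:**
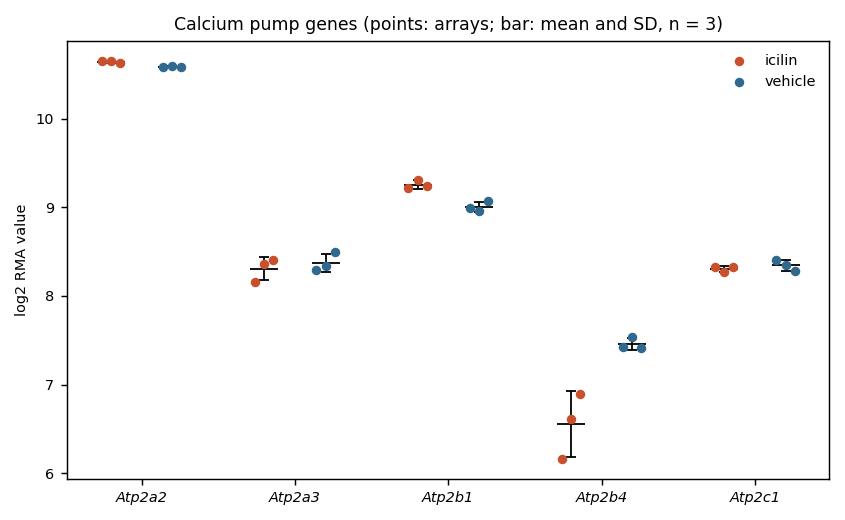
Log2 RMA value (y axis) of the 5 calcium pump genes in the 3 icilin arrays (left points of each gene) and the 3 vehicle arrays (right points); bars give the mean and SD. The icilin values of Atp2b4 lie between 6.16 and 6.90, all below its vehicle values of 7.42 to 7.54, and those of Atp2b1 lie above its vehicle values.

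Its relative Atp2b1, the more widely used plasma membrane pump gene, differed in the opposite direction without passing the test. Atp2b1 had 9.22, 9.31 and 9.24 in icilin arrays, against 8.99, 8.96 and 9.07 in vehicle arrays. The groups did not overlap, and the difference was 0.25 ± 0.07 (SE; 95% interval 0.09 to 0.41), the smallest adjusted p among the uncalled members (limma adjusted p = 0.110). The other plasma membrane pump genes, Atp2b2 and Atp2b3, had differences of -0.03 and -0.07.

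The promoter windows of this pair are shown because these pump genes of 1 family differed in opposite directions, although Atp2b1 was not called. The sequences are from RefSeq (GRCm38.p6) and run from 250 bases before to 50 after a transcript start. They are written in the direction of the gene, 5′ to 3′. Capitals mark matches on either strand to GGAAA, which reads TTTCC where it lies on the other strand and is the core bound by the calcium-dependent factor NFAT, or to ACGTG, a core of hypoxia response elements.
Atp2b4, chr1:133753698-133753997, minus strand: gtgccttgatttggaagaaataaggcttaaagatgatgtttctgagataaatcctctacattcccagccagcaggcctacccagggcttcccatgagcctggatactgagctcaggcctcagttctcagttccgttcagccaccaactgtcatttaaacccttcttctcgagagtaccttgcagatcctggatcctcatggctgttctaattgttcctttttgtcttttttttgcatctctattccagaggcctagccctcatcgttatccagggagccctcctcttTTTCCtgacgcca
Atp2b1, chr10:98914392-98914691, plus strand: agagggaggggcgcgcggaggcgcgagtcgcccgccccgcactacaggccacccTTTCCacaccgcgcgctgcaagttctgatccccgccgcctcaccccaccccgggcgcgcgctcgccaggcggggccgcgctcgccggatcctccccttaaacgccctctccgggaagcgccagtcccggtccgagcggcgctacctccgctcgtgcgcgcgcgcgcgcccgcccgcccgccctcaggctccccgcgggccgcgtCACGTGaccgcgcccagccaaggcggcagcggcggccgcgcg
The Atp2b4 window held 1 GGAAA match and 0 ACGTG matches, and 4 CG dinucleotides. The Atp2b1 window held 1 GGAAA match, 2 ACGTG matches that overlap on opposite strands of a CACGTG, and 54 CG dinucleotides. No GGAAA match overlapped an ACGTG match. Of 32851 such windows, 61.3% held GGAAA and 19.6% held ACGTG, and the median number of CG dinucleotides was 7. The table lists a second Atp2b1 start, whose window held 0 matches to either motif. These are descriptions of letters. No binding was measured, and neither was the transcript start that these cells use.

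The remaining pumps were bright and not called. Atp2a2, the main pump that refills the endoplasmic reticulum, had 10.65, 10.65 and 10.62 in icilin arrays and 10.58, 10.60 and 10.58 in vehicle arrays. It was the brightest member, and although the groups did not overlap, the difference was 0.05 (95% interval -0.08 to 0.19). Atp2a3, the reticulum pump of blood cells, averaged 8.31 ± 0.13 with icilin and 8.37 ± 0.10 with vehicle. Atp2c1, which loads the Golgi with calcium and manganese, averaged 8.31 ± 0.04 with icilin and 8.35 ± 0.06 with vehicle.

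Genes for mitochondrial uptake, for ATP-gated channels and for the potassium channels were all bright, with 0 called by limma and 0 with a p under 0.05 before adjustment. Mcu, the pore of the mitochondrial calcium uniporter, averaged 8.81 ± 0.03 with icilin and 8.85 ± 0.13 with vehicle, and its gatekeeper gene Micu2 averaged 8.37 ± 0.05 with icilin and 8.36 ± 0.05 with vehicle. P2rx4 averaged 7.55 ± 0.03 with icilin and 7.50 ± 0.04 with vehicle, and P2rx7, whose channel can trigger T cell death, averaged 6.86 ± 0.11 with icilin and 6.88 ± 0.06 with vehicle. P2rx4 overlaps the protein-coding gene Camkk2 in RefSeq. Kcnn4, the calcium-activated potassium channel of activated T cells, had 9.87, 9.87 and 9.90 in icilin arrays and 9.93, 10.0 and 10.1 in vehicle arrays. Every icilin value was below every vehicle value, with a difference of -0.13 (95% interval -0.30 to 0.03). Kcna3, the voltage-gated potassium channel of T cells, averaged 8.20 ± 0.07 with icilin and 8.23 ± 0.03 with vehicle, and its groups overlapped.

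Other genes of calcium signalling, on 8 lists with 105 measured genes, held 1 called gene, Plcd1, which fell. That is again near the share of all genes. Plcd1, a phospholipase C that responds to calcium, had 4.66, 4.68 and 4.97 in icilin arrays, against 5.61, 5.73 and 5.49 in vehicle arrays. The groups were well apart, and the difference was -0.84 ± 0.11 (SE; limma adjusted p = 0.0104). The call held without each array in turn, with differences of -0.94 to -0.78. Plcd1 belongs to a list of 12 genes that make or remove IP3, whose median was -0.02, with 6 genes above and 6 below 0.

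Without the fold limit, 8 of the 105 genes passed the adjusted p, 4 higher and 4 lower, and 5.28% of all genes did. In the IP3 list these were, besides Plcd1, Itpkb, the kinase that turns IP3 into a tetrakisphosphate (-0.44 ± 0.08, limma adjusted p = 0.0298), and the phospholipase genes Plcb4 (0.40 ± 0.07) and Plcb2 (0.27 ± 0.07). Itpkb had 8.11, 8.04 and 8.24 in icilin arrays, against 8.62, 8.59 and 8.51 in vehicle arrays, a gap between the groups of more than their own spread. These 3 genes were named after their values were seen.

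On the other 7 lists limma called 0 genes, and SAM called 0. Without adjustment 6 positive and 7 negative differences had a limma p under 0.05, a limit that 17.1% of all genes passed. The member with the smallest p is given for each list. Among 9 regulators of store-operated entry it was Esyt2, a tether between reticulum and plasma membrane (0.33 ± 0.06, limma adjusted p = 0.0415). Among 17 calmodulin, calcineurin and buffer genes it was the calmodulin-dependent kinase gene Camk1d (0.32 ± 0.06, adjusted p = 0.0480). Among 11 genes of other ion transport it was Clcn3, a chloride-proton exchanger gene (-0.34 ± 0.07, adjusted p = 0.0424). All 3 are short of 1.5-fold.

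Among 17 subunits of voltage-gated calcium channels, of which 4 were above the median line, the smallest p was that of the dim gene Cacnb2, which also passed the adjusted p alone (-0.44, limma adjusted p = 0.0541), and 15 of 17 differences were below 0 with a median of -0.04. Over all genes 10431 of 22180 differences were below 0. Among 19 other members of the channel families it was the mechanosensitive channel gene Piezo1 (0.26, adjusted p = 0.107). Among 8 mitochondrial genes it was the outer membrane channel gene Vdac1 (-0.21, adjusted p = 0.137). Among 12 other pumps and exchangers, 1 of them above the median line, it was Slc24a3 (0.29, adjusted p = 0.165), and 10 of 12 differences were below 0. List medians ran from -0.07 to 0.09, and the median over all 105 genes was -0.02.

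**Figure D4:**
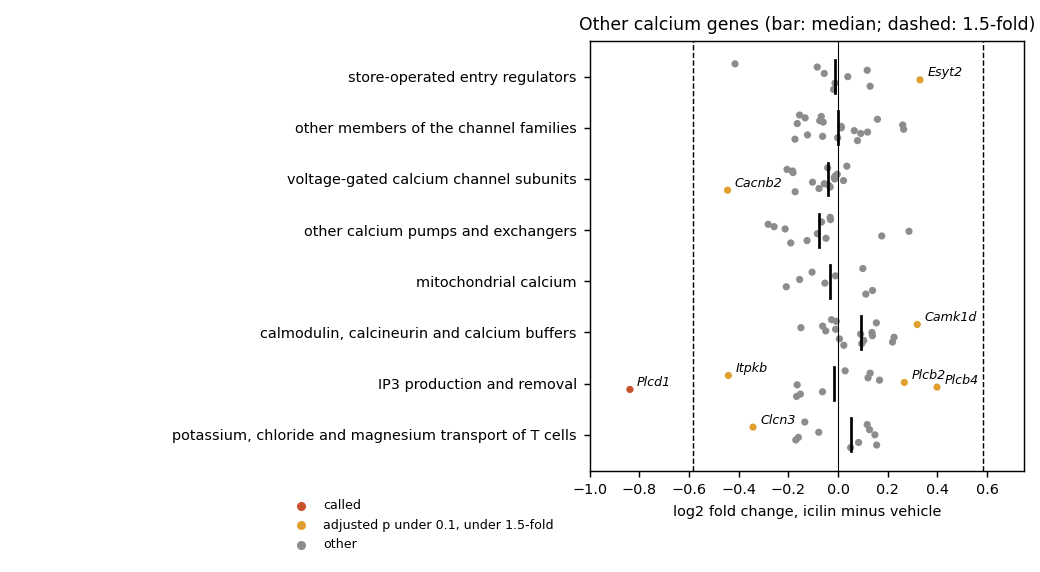
Difference in log2 RMA value, icilin minus vehicle (x axis), of the genes of 8 lists of other calcium genes (rows; the points are genes and the bar is the list median), n = 3 arrays a group. Dashed lines mark 1.5-fold; Plcd1, at -0.84, is the gene beyond them, and the 7 other labelled genes passed the adjusted p alone.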

How the data were processed

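Per the series design text, RNA (0.25 µg, integrity number at least 8) from 6 cell samples was hybridised to Affymetrix Mouse Gene 2.0 ST arrays, and the authors made log2 values with RMA, named in the submitters' processing notes too. The deposited values were used as given. Annotation version and genome build are not given in the sources used here. RMA makes array distributions alike, so a shift common to most genes would not show.

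Of 41345 probe sets, 23521 had 1 gene symbol in the platform annotation, 1814 several and 16010 none; the first kind gave 22180 genes. Tests were two-sided, with limma 3.58.1 under R 4.3.3 (no trend) and Benjamini-Hochberg adjustment over all genes. SAM used all 20 relabellings; limma was the main test because permuting 3 against 3 arrays gives no p under 0.1 for a single gene. Both were tested on simulated data. Every member was named; on each list of other calcium genes, called members or, with none, the smallest p. The members and lists were chosen with earlier results of these data known. Lists have counts and medians only. Figures used Python 3.11.15 with matplotlib 3.10.9.

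Per the design text both groups came from the same 3 mice, but no label says that a replicate number names a mouse. Same-numbered arrays did not deviate together (r of deviations from group means -0.02 to -0.01, over genes), so arrays were not paired in the main fit.

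Alternatives were median centring, a block for replicate number, robust variances with a trend on intensity, quantile normalization, leaving out dim genes, averaging probe sets, testing every probe set, leaving out each array, limits without a fold, SAM, and other brightness lines.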

Additional observations from a re-analysis of the deposited data

How the results depend on the processing

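Among the members, calls with the fold limit changed for Atp2b4 alone. The count of called members was 1 under median centring, quantile normalization, the trend with robust variances, dim genes left out, averaged probe sets, both limits without a fold and SAM. It was 0 with every probe set tested, and 0 to 1 with an array left out. With the replicate block it was also 1 (Atp2b4, limma adjusted p = 0.0831), and the other calcium lists held 1 called gene (Plcd1, adjusted p = 0.0639). The block changed no call among the members and these lists, and 283 genes were called in all. Whether the calls of cell type markers held with the block was not examined. Dropping the fold limit gave 8 called genes on the other calcium lists at an adjusted p under 0.1 and 6 at 0.05, and 1170 and 734 over all genes, by construction. No uncalled member became called under any alternative with the fold limit. Counted by adjusted p alone, a choice made after seeing the data, 4 members passed with the trend and robust variances, 6 with dim genes left out, and 0 or 1 under the other alternatives (Orai1 without vehicle replicate 1, otherwise Atp2b4). Of 43 members, 24 kept their sign under every alternative and 19, all uncalled, turned it in at least 1, 18 of them with an array left out. The members' median was -0.03 to 0.01 over the alternatives; it was above 0 with dim genes left out (27 members tested) and without icilin replicate 3. The count of bright members was 25 to 27. For the 18 dimmer members signal near background limits the differences that could be seen.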
